A study of Mus musculus with 13 samples.

Results

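The NF-κB subunits and their feedback inhibitors were examined in glomeruli of mice with anti-THSD7A IgG–induced membranous nephropathy (MN). The genes were chosen by name: the 5 subunit genes *Rela*, *Relb*, *Rel*, *Nfkb1* and *Nfkb2*, the IκB family genes *Nfkbia*, *Nfkbiz* and *Bcl3*, and the ubiquitin-editing inhibitor *Tnfaip3* with its binding partner *Tnip1*. They make up 10 of the 35967 gene symbols with deposited values, and all 10 passed the filter on low values and were tested together with the other genes (14322 in all). Wildtype Balb/c mice received 2.0 mg of antibody by intraperitoneal injection. Control mice (n = 5) received rabbit preimmune IgG, and MN mice received rabbit anti-THSD7A IgG, with kidneys collected at day 1 (n = 4) or day 5 (n = 4). The study's methods state that the MN model was examined in male mice only. They give an age of 14 to 15 weeks for mice in which the model was induced, without tying this age to the sequenced animals. Control mice of both days form 1 group, and which control mouse belongs to which day was not given. No transgene or deleted allele is named for these mice. The antibody is raised in another species and transferred passively, which limits the groups as a model of autoimmune MN.

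Glomeruli were isolated after perfusion with magnetic beads, and each mouse gave 1 RNA-Seq library. The study describes isolation by collagenase digestion with homogenization, and a mechanical isolation for co-immunoprecipitation that avoids collagenase. It does not name the one used for the sequenced glomeruli. Values are TPM, the share of transcripts that a gene makes up in its library, which are scaled for transcript length, so that levels of different genes within a library can be set side by side. They hold no read depth, so the number of reads behind each value is unknown. Differences are log2 fold changes of scaled TPM + 0.5 from limma, given with their standard error (SE) or 95% confidence interval. A call required an adjusted p under 0.05 together with an absolute log2 fold change above 0.5. In bulk tissue, a lower TPM from fewer cells of a type cannot be told apart from less RNA per cell. The 7 podocyte markers summed to 6547 to 8863 TPM, against 556 to 1846 TPM for 12 tubule markers and 31.0 to 79.2 TPM for 10 leukocyte markers, and the leukocyte genes *Adgre1*, *Cd3e* and *Cd79a* did not reach the filter on low values.

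NF-κB is a family of dimeric transcription factors. In resting cells most dimers of RELA, REL and p50 (from *Nfkb1*) are held in the cytoplasm by IκB proteins, and the IκB kinase (IKK) complex releases them by marking IκBα (from *Nfkbia*) for degradation. A slower, noncanonical arm processes p100 (from *Nfkb2*) to p52, which pairs with RELB. Many of the genes that NF-κB activates encode its own inhibitors, among them *Nfkbia*, *Tnfaip3* (the protein A20) and *Nfkb2*, so that their transcripts are commonly read as feedback of the pathway. In podocytes, the epithelial cells of the glomerular filter that carry THSD7A, NF-κB is known for driving inflammatory and injury responses.

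NF-κB acts on its target genes through κB sites, short DNA elements that are often found near gene starts. Promoter sequence of RefSeq on GRCm38.p6 was available for 7 of the 10 genes, and it was not available here for *Relb*, *Nfkb1* and *Nfkbiz*. The 250 bases before each annotated start were searched on both strands for the κB consensus, a run of G bases and a purine, an open middle, and pyrimidines closing in C bases, and overlapping matches were merged. At least 1 match stood in 5 of the 7 genes (71.4%), against 8.23% of 27025 symbols with such windows and 10.5% of the 10683 of them that were also tested. The 5 genes were *Rel*, *Nfkb2*, *Nfkbia*, *Tnfaip3* and *Tnip1*, and no match lay in the windows of *Rela* and *Bcl3*. These shares are a description of letters, and binding was not measured. The 4 windows below are shown because they belong to the gene called at day 5 (*Tnfaip3*), to its partner (*Tnip1*), to the main IκB (*Nfkbia*) and to the noncanonical subunit (*Nfkb2*). They read 5′ to 3′ on the strand of the gene, the base before the start comes last, and capitals mark the κB matches.
Tnfaip3, chr10:19015411-19015660, minus strand: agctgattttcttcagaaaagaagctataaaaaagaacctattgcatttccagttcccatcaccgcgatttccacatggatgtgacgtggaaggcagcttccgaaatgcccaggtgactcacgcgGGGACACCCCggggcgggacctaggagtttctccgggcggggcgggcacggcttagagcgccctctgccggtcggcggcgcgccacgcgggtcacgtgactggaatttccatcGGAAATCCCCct
Tnip1, chr11:54962941-54963190, minus strand: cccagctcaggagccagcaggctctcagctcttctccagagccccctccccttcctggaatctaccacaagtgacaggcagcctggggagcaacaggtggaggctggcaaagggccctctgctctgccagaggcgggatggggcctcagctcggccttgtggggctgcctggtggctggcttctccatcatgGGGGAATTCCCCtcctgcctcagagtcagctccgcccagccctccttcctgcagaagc
Nfkbia, chr12:55492648-55492897, minus strand: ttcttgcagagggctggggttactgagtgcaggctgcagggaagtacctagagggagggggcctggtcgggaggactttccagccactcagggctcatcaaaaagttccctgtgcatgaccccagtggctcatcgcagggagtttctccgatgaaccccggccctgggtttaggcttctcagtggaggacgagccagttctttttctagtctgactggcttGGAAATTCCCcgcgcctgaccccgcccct
Nfkb2, chr19:46304487-46304736, plus strand: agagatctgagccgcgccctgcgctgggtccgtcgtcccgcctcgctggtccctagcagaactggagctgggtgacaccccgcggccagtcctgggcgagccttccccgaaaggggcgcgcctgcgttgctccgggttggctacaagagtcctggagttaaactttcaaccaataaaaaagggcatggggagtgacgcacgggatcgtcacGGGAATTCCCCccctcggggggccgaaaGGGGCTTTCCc

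The *Tnfaip3* window held a match from 125 to 116 bases and another from 12 to 3 bases before its start, and a second annotated start of the gene had none. The *Nfkb2* window also held a pair, from 39 to 29 and from 11 to 2 bases before the start, and its other 2 starts had 1 match each. *Nfkbia* had a single match from 29 to 20 bases, *Tnip1* one of 12 bases from 58 to 47, and *Rel* one from 92 to 82 bases before the start. Of these 5 genes, *Tnfaip3* passed both thresholds for a call at day 5, as given below, and the other 4 did not.

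**Figure D1:**
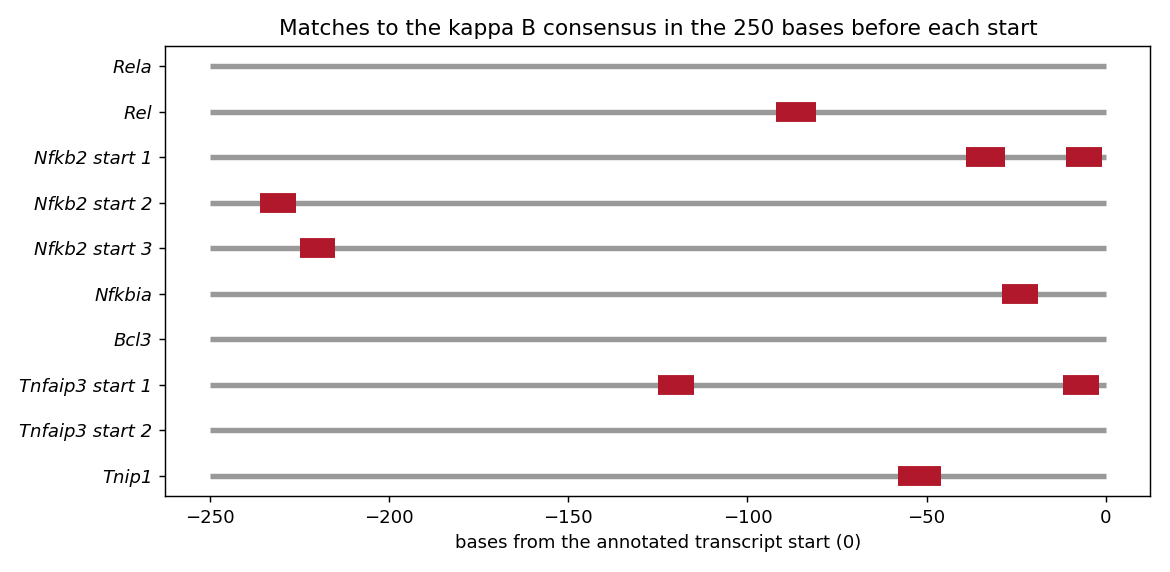
Position of κB consensus matches in the 250 bases before the annotated starts, with the distance from the start in bases on the x axis, 1 line per start and matches as blocks. Matches appear in windows of *Rel*, *Nfkb2*, *Nfkbia*, *Tnfaip3* and *Tnip1*, and none in those of *Rela* and *Bcl3*.

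The 10 transcripts spanned levels from 1.07 to 241 TPM, and their order was nearly fixed across the groups. In control glomeruli *Nfkbia* was the most abundant, at 204 TPM ± 31.5 (SD, n = 5). *Rela* (78.5 ± 5.20) and *Nfkb1* (69.2 ± 2.87), the canonical pair, followed, and their ranges overlapped. *Tnip1* (39.7 ± 3.77) stood apart from both its neighbours, and the ranges of *Nfkb2* (25.6 ± 2.49) and *Relb* (20.9 ± 3.59) overlapped. *Bcl3* (8.15 ± 2.04), *Tnfaip3* (7.04 ± 1.62) and *Nfkbiz* (4.39 ± 0.730) came next. The range of *Tnfaip3* overlapped those of both others, and every *Bcl3* library lay above every *Nfkbiz* library. Within every single control library, *Rela* was above *Nfkb1*, *Nfkb2* above *Relb* and *Tnfaip3* above *Nfkbiz*. *Bcl3* was above *Tnfaip3* in all control libraries but replicate 4. *Rel*, the subunit best known from lymphocytes, was lowest at 1.44 ± 0.187 TPM. The single change of rank under MN was that of *Tnfaip3*, which stood 8 of 10 in control glomeruli and 7 of 10 at both MN days, above *Bcl3*. Libraries of these 2 genes overlapped at day 1 and were apart at day 5.

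**Figure D2:**
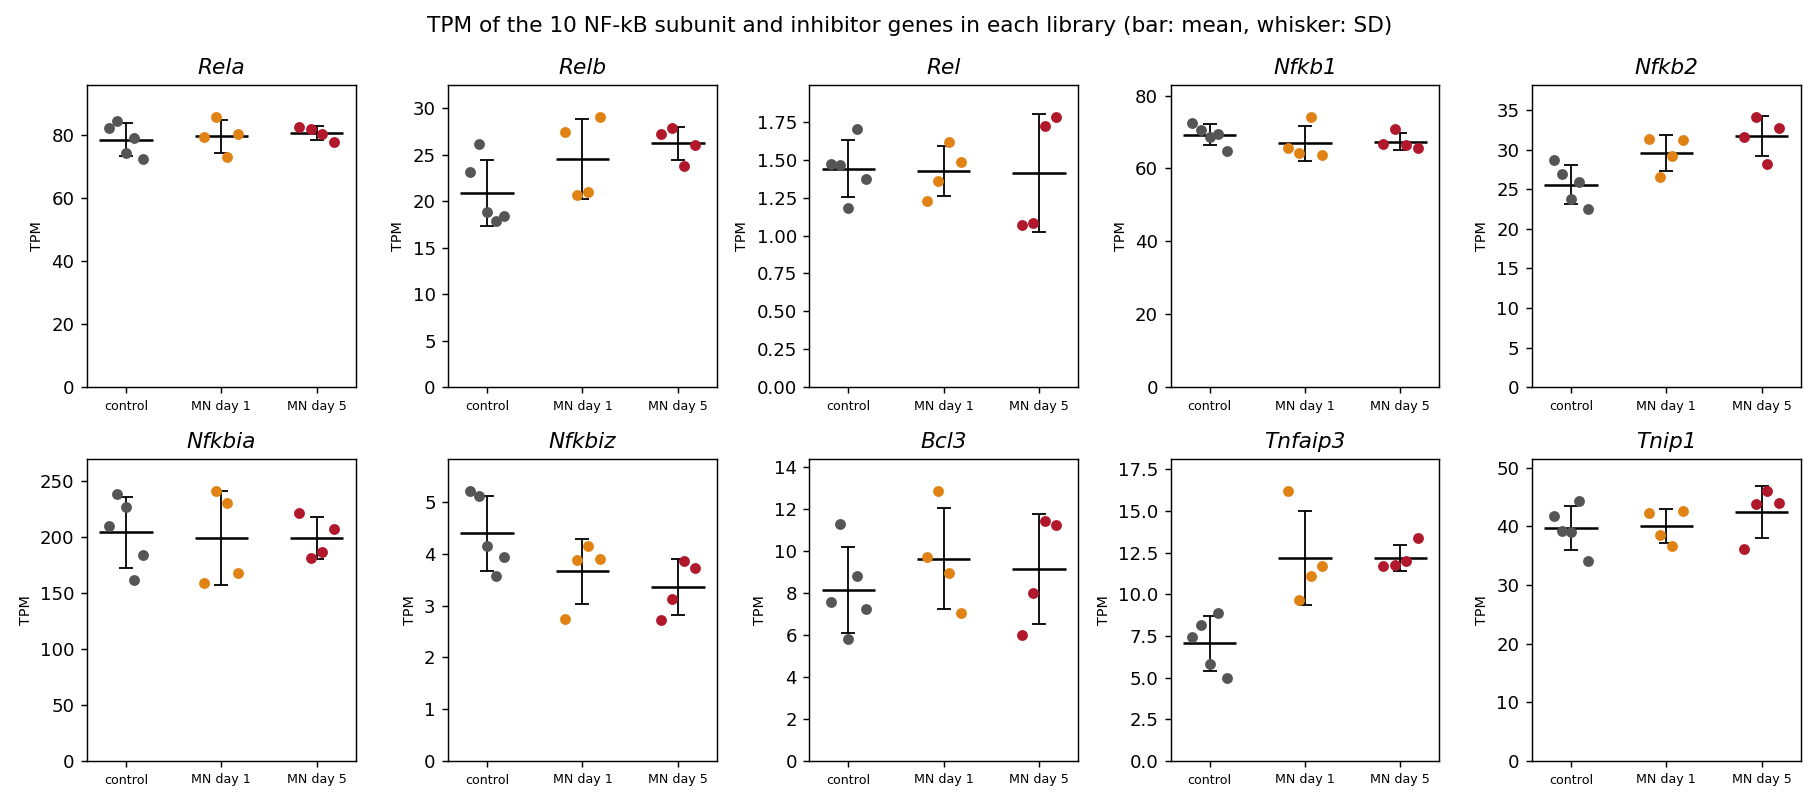
TPM of each gene in a panel of its own, on a linear y axis from 0, with 1 point per library, a bar for the group mean and whiskers for the SD, for control (n = 5), day 1 MN (n = 4) and day 5 MN (n = 4). The *Tnfaip3* points of both MN groups lie above every control point, while the *Nfkbia*, *Rela* and *Nfkb1* points of the groups overlap.

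*Tnfaip3* had the highest log2 fold change of the 10 genes at both days. It encodes A20, which removes and adds ubiquitin chains on signalling intermediates upstream of IKK and so ends NF-κB activation (GRCm39 chr10:18874201-18891405, minus strand). Its TPM was 7.44, 8.13, 5.80, 8.88 and 4.97 in control replicates 1 to 5. At day 1 it was 16.2, 9.68, 11.1 and 11.7 in replicates 1 to 4, and at day 5 it was 11.7, 11.7, 12.0 and 13.4. Every MN library lay above every control library at both days, and the day 5 values were close together while day 1 replicate 1 was the highest of all 13 libraries.

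At day 5 the difference was a log2 fold change of 0.81 (SE 0.16, 95% interval 0.46 to 1.16), or 1.75-fold with an interval of 1.38 to 2.23, and it passed both thresholds (limma, adjusted p = 0.00867). It was the only one of the 10 genes called at day 5, where 2.42% of all tested genes were called higher and 3.21% in either direction. At day 1 the log2 fold change was of similar size, 0.79 (SE 0.16, interval 0.45 to 1.14), and did not pass the adjustment (limma across all genes, adjusted p = 0.109). The study, which tested counts with DESeq2, places *Tnfaip3* among the genes altered at both day 1 and day 5. The study also measured several of its altered genes by qRT-PCR at both days, and reports a match to its RNA-Seq. Its listed primers cover *Tnfaip3*, *Tnfrsf12a*, *Egr1* and *Egr3*. Those qRT-PCR values were not used here. Without control replicate 5, the control with the lowest *Tnfaip3* and the highest summed tubule markers, *Tnfaip3* was called at day 1 as well (0.70, limma adjusted p = 0.0387). Over the other 12 omissions of 1 library it was not called, and the adjusted p over all 13 ranged from 0.0387 to 0.319. At day 1, 0.0908% of all genes were called by limma and none of the 10 was, while 2 of the 10 (*Tnfaip3* and *Nfkb2*) had an unadjusted p under 0.05, against 12.6% of all genes. Of the 10, *Tnfaip3* alone had MN libraries that did not overlap control at day 1 and at day 5, against 0.908% and 5.07% of all genes with every MN library higher.

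*Tnip1* encodes ABIN1, an adaptor that binds A20 and polyubiquitin, and its level did not follow that of *Tnfaip3*. Its TPM was 41.7, 39.2, 39.0, 44.3 and 34.2 in control glomeruli, 42.4, 38.6, 36.7 and 42.7 at day 1, and 36.1, 43.8, 46.0 and 44.0 at day 5. The groups overlapped, with log2 fold changes of 0.06 (interval -0.11 to 0.23) at day 1 and 0.13 (-0.04 to 0.30) at day 5 (limma, adjusted p = 0.784 and 0.394). The ratio of *Tnfaip3* to *Tnip1* TPM within a library ran from 0.146 to 0.207 in control, 0.251 to 0.382 at day 1 and 0.260 to 0.324 at day 5. In the annotation, *Tnip1* (chr11:54796320-54854661, minus strand) shares 2603 exon bases with *Gpx3* on the other strand, which was present at 1151 to 3631 TPM in control glomeruli. Whether strand was used in the authors' quantification was not given, so the *Tnip1* values are uncertain to that extent.

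The canonical subunits did not pass the test at either day, and their intervals were narrow. *Rela* encodes p65, the subunit that carries the main activation domain (chr19:5687493-5698161, plus strand). Its TPM was 82.3, 84.5, 74.2, 79.1 and 72.3 in control glomeruli, 79.5, 85.6, 72.9 and 80.2 at day 1, and 82.7, 81.8, 80.2 and 77.9 at day 5. The groups covered the same range, and the intervals of the log2 fold change, -0.07 to 0.20 at day 1 and -0.06 to 0.21 at day 5, lay well short of the threshold of 0.5 (limma, adjusted p = 0.71 and 0.577). *Nfkb1*, the source of p50 (chr3:135290264-135397742, minus strand), was at 72.4, 70.6, 68.7, 69.5 and 64.7 TPM in control glomeruli. It was at 65.7, 64.4, 74.0 and 63.7 TPM at day 1 and at 66.6, 70.8, 66.4 and 65.6 TPM at day 5. Both log2 fold changes were near 0, with an interval of -0.12 to 0.11 at each day (limma, adjusted p = 0.988 and 0.985), the narrowest of the 10 genes.

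*Rel* encodes c-Rel (chr11:23686847-23721264, minus strand) and was near the filter on low values in every group, at 1.18 to 1.70 TPM in control, 1.23 to 1.62 at day 1 and 1.07 to 1.78 at day 5. At day 5 its libraries fell into 2 near 1.1 TPM and 2 near 1.7 TPM. Its log2 fold changes of 0.02 (interval -0.35 to 0.40) and -0.01 (-0.39 to 0.36) were the least certain among the subunits, with adjusted p = 0.973 and 0.984 by limma.

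The noncanonical subunits had higher means in MN, by less than *Tnfaip3*. *Nfkb2*, which encodes p100 and p52 (chr19:46292759-46303812, plus strand), was at 28.8, 26.9, 23.8, 26.0 and 22.5 TPM in control glomeruli. It was at 31.3, 26.5, 29.2 and 31.2 TPM at day 1 and at 31.7, 34.1, 28.2 and 32.8 TPM at day 5. In both MN groups 3 of 4 libraries lay above every control, with day 1 replicate 2 and day 5 replicate 3 inside the control range. The log2 fold change was 0.25 (SE 0.09, limma adjusted p = 0.292) at day 1 and 0.34 (SE 0.09, interval 0.15 to 0.52, limma adjusted p = 0.0342) at day 5. The day 5 difference of 1.27-fold thus passed on p and not on size. Of all genes, 6.12% had a day 5 adjusted p under 0.05, which includes the 3.21% that passed both thresholds. The adjusted p of *Nfkb2* at day 5 ran from 0.0119 to 0.117 when 1 library was left out (limma).

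*Relb*, the partner of p52 (chr7:19339017-19363425, minus strand), was at 23.1, 26.1, 18.8, 17.9 and 18.4 TPM in control glomeruli, 27.4, 20.7, 21.0 and 29.0 at day 1, and 27.2, 27.9, 23.8 and 26.0 at day 5. Control replicates 1 and 2 reached into the day 1 range, and control replicate 2 alone into the day 5 range, so the groups overlapped at both days. The log2 fold change was 0.27 (interval -0.01 to 0.55) at day 1 and 0.37 (0.09 to 0.65) at day 5, and neither passed (limma, adjusted p = 0.417 and 0.129). At day 5, 3 of the 10 genes had an unadjusted p under 0.05 (*Tnfaip3*, *Nfkb2* and *Relb*), against 20.1% of all genes. In the annotation *Nfkb2* shares 1933 exon bases with *Psd* on the other strand, which was at 6.98 to 9.16 TPM in control and 7.70 to 13.5 TPM at day 5, and *Relb* shares none with another gene.

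The balance of noncanonical to canonical subunit transcripts was described after these values were seen, and without a test. The sum of *Nfkb2* and *Relb* TPM divided by that of *Nfkb1* and *Rela* was 0.335, 0.342, 0.298, 0.295 and 0.299 in control glomeruli. It was 0.404, 0.314, 0.342 and 0.418 at day 1 and 0.395, 0.406, 0.354 and 0.410 at day 5. All day 5 libraries were above all controls, while day 1 replicate 2 lay within the control range and day 1 replicate 3 at its upper end. The numerator made the difference, at 41.0 to 53.0 TPM in control and 52.0 to 61.9 TPM at day 5, since the denominator covered 137 to 155 TPM and 144 to 153 TPM.

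**Figure D3:**
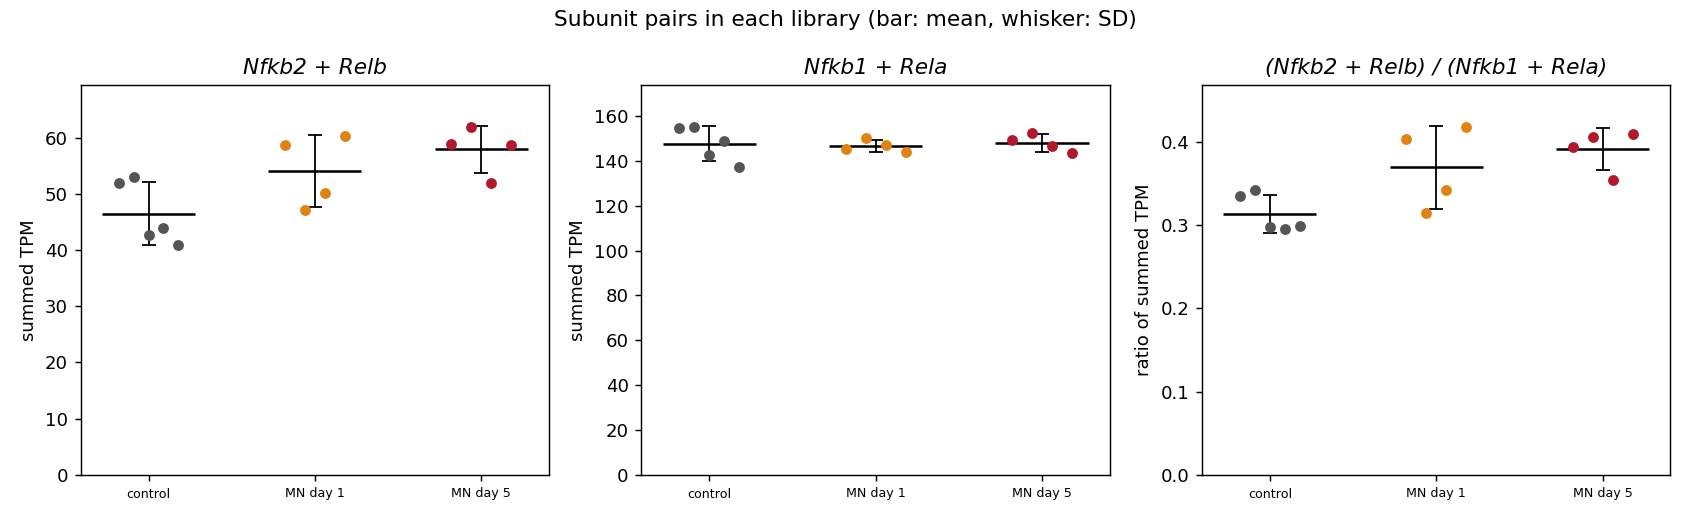
Summed TPM of *Nfkb2* and *Relb* (left), summed TPM of *Nfkb1* and *Rela* (middle) and the ratio of these sums (right), each on a y axis from 0, with 1 point per library, a bar for the group mean and whiskers for the SD. The canonical sums of all groups lie between 137 and 155 TPM, and all day 5 ratios, from 0.354 to 0.410, lie above the highest control ratio of 0.342.

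The IκB genes did not pass the test at either day. *Nfkbia* encodes IκBα, the inhibitor that is degraded and then made again by NF-κB itself (chr12:55535332-55539432, minus strand). Its TPM was 210.0, 238, 227, 161 and 184 in control glomeruli, 158, 241, 230 and 168 at day 1, and 221, 181, 186 and 207 at day 5. Control and day 1 libraries were each split between values of 158 to 184 and values of 210.0 and above, and the day 5 libraries lay inside that range. The log2 fold change had an interval of -0.30 to 0.31 at both days (limma, adjusted p = 0.997 and 0.988), so that a change as large as that of *Tnfaip3* lies outside it. The ratio of *Nfkbia* to *Rela* TPM was 2.04 to 3.06 in control, 1.99 to 3.15 at day 1 and 2.21 to 2.68 at day 5.

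*Nfkbiz* encodes IκBζ, a nuclear cofactor for a subset of inflammatory genes (chr16:55631738-55659262, minus strand), and had the lowest log2 fold change of the 10 genes at both days. It was at 5.21, 5.11, 4.14, 3.57 and 3.93 TPM in control glomeruli, 2.74, 3.87, 4.15 and 3.90 at day 1, and 2.71, 3.12, 3.86 and 3.73 at day 5. The groups overlapped, and the log2 fold changes of -0.19 (interval -0.52 to 0.13) and -0.31 (-0.63 to 0.01) did not pass (limma, adjusted p = 0.624 and 0.269). *Bcl3*, a nuclear IκB that binds p50 and p52 dimers (chr7:19541553-19557570, minus strand), was among the most variable between mice. It covered 5.83 to 11.3 TPM in control, 7.05 to 12.9 TPM at day 1 and 6.0 to 11.4 TPM at day 5, with log2 fold changes of 0.27 (-0.18 to 0.73) and 0.18 (-0.28 to 0.64) that did not pass (limma, adjusted p = 0.622 and 0.715).

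Across the 10 genes, 8 had a positive log2 fold change at day 1 and 7 at day 5, with medians of 0.06 and 0.10. Over all tested genes the medians were near 0, and 49.2% and 49.3% of genes were positive. None of the 10 was called lower at either day, where 0.0349% and 0.789% of all genes were. These comparisons share the control mice.

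**Figure D4:**
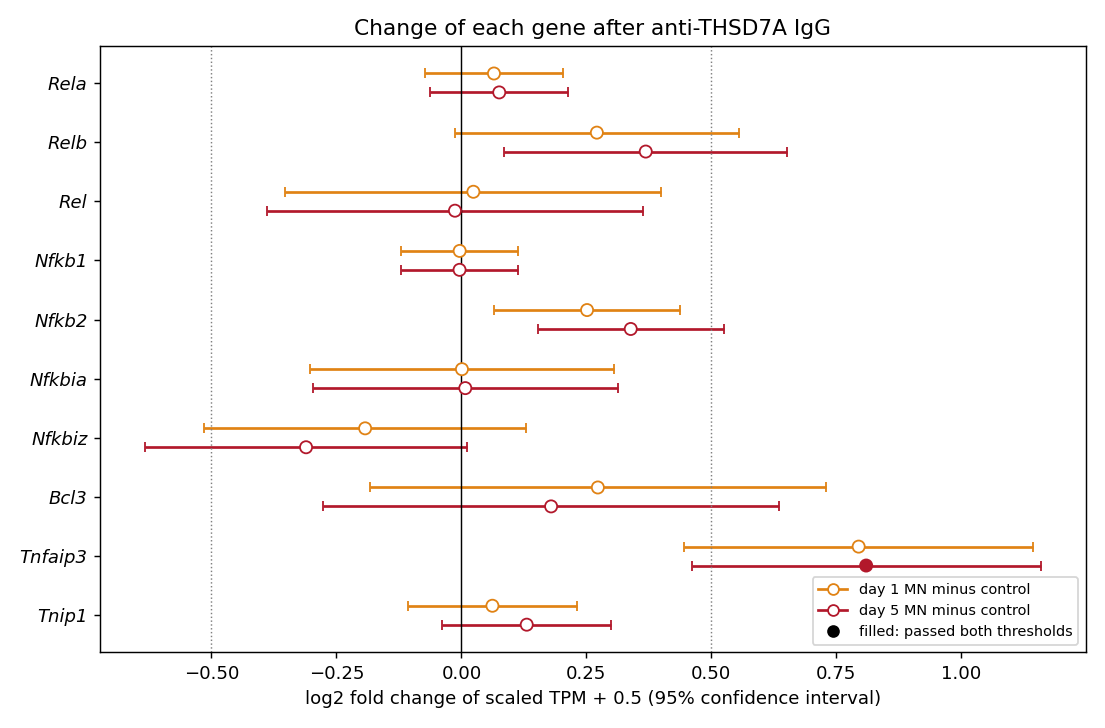
Log2 fold change of each gene with its 95% confidence interval at day 1 and at day 5 against control, with the thresholds of 0.5 in either direction drawn as dotted lines and calls as filled points. *Tnfaip3* stands at 0.79 and 0.81, *Nfkb2* and *Relb* between 0.25 and 0.37, and the intervals of *Rela*, *Nfkb1* and *Nfkbia* include 0.

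Day 5 and day 1 were also compared directly, since the study set early against late disease. None of the 10 genes was called and none had an unadjusted p under 0.05 (limma), against 1.81% and 15.5% of all genes. The log2 differences ran from -0.12 for *Nfkbiz* to 0.10 for *Relb*, and 6 of 10 were positive. For *Tnfaip3* the difference was 0.02 with an interval of -0.35 to 0.38 (limma, adjusted p = 0.983), so that neither a further rise nor a return toward control of up to about that size could be detected. *Nfkb2* differed by 0.09 (limma, adjusted p = 0.719). Libraries of day 1 and day 5 overlapped for all 10 genes, whereas 11% of all tested genes had libraries of the 2 days that did not overlap.

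The rest of the pathway was examined with lists of other inhibitors, of IKK with its upstream receptors and adaptors, and of NF-κB target genes. Of the other inhibitors, 12 of 13 genes were tested and 0 were called by limma at either day (1 with an unadjusted p under 0.05 at each), with medians of 0.01 and -0.01. *Nfkbie*, which encodes IκBε, had the highest value of that list at day 5 (0.48, SE 0.14, limma adjusted p = 0.0702). Its TPM was 14.4 to 19.1 in control, 16.8 to 24.3 at day 1 and 19.5 to 30.9 at day 5. All its day 5 libraries lay above control, as in 5.07% of all genes, while those of *Zfp36* in the same list all lay below. With 1 library left out, *Nfkbie* passed both thresholds in 1 of 13 fits, that without day 5 replicate 3 (0.60, limma adjusted p = 0.0321). Over the 13 fits it ran from 0.35 to 0.60, with limma adjusted p from 0.0321 to 0.204. It was called in 0 of 10 other settings. *Nfkbid* was lowest, at -0.20 (limma, adjusted p = 0.767).

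Of the upstream genes, 29 of 30 were tested, and 1 was called, higher, at each day, with medians of -0.01 and 0.03. Of all genes, 0.0908% and 3.21% were called in either direction. An unadjusted p under 0.05 (limma) was found for 3 of the 29 at day 1 and 6 at day 5, against 12.6% and 20.1% of all genes. The called gene was *Tnfrsf12a*, which encodes FN14, a receptor for TWEAK that can engage the noncanonical arm. Its TPM was 27.8 to 42.5 in control, 67.3 to 109 at day 1 and 59.1 to 109 at day 5, with no overlap between MN and control. The log2 fold change was 1.27 (SE 0.21, limma adjusted p = 0.0395) at day 1 and 1.07 (SE 0.21, limma adjusted p = 0.00776) at day 5. The day 5 call held when any 1 library was left out, and the day 1 call held in 5 of 13 such fits, those without control replicate 5, day 1 replicate 3 or day 5 replicate 1, 3 or 4 (adjusted p from 0.0147 to 0.136 over the 13). It also held in 6 of 10 other settings, and was lost with no filter on low TPM (limma, adjusted p = 0.105), without the trend (0.0817), with a fit of the compared groups alone (0.0524) and with a tubule marker score as a covariate (0.284). *Traf5* (0.28) and *Tab2* (-0.23), adaptors on the way to IKK that were named after their values were seen, passed on the day 5 adjusted p (limma, 0.0451 and 0.0289) and not on size. With 1 library left out, the limma adjusted p ran from 0.0434 to 0.117 for *Traf5* and from 0.0151 to 0.0991 for *Tab2*. In the other settings it reached 0.121 for *Traf5* and 0.122 for *Tab2*. *Rnf31*, a subunit of the linear ubiquitin ligase, was lowest of the list at day 5, also at -0.23 (limma, adjusted p = 0.331).

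Of the 30 target genes, 22 were tested, with medians of 0.07 and 0.09 at day 1 and day 5 and with 13 and 16 of 22 positive. By limma, 0 were called at day 1 (3 with an unadjusted p under 0.05) and 1 at day 5 (4 with an unadjusted p under 0.05). Of all genes, 0.0908% and 3.21% were called, and 12.6% and 20.1% had an unadjusted p under 0.05. The one called was *C3*, the central complement component, at 0.871 to 2.14 TPM in control and 2.08 to 3.73 TPM at day 5 (0.89, SE 0.24, limma adjusted p = 0.041), where control replicate 3 lay above the lowest day 5 library. Its call held in 4 of 13 fits that left out 1 library, those without control replicate 3 or 5, day 1 replicate 3 or day 5 replicate 2 (adjusted p from 0.0298 to 0.133 over the 13). It held in 6 of 9 other settings, and was lost with quantile normalization (limma, adjusted p = 0.0548), with no filter on low TPM (0.0685) and with a fit of the compared groups alone (0.073). *Cxcl1*, a neutrophil chemokine, had the highest value of the list (0.91, limma adjusted p = 0.153), and *Ptgs2*, which encodes COX-2, the lowest (-0.37, limma adjusted p = 0.377). *Ccl2*, *Ccl20*, *Cxcl2*, *Il6*, *Lcn2*, *Csf2*, *Saa3* and *Mmp9* did not reach the filter on low values, and *Il6* was listed at 0 in every library. *Tnf* among the upstream genes and *Tnip3* among the inhibitors did not reach it either.

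**Figure D5:**
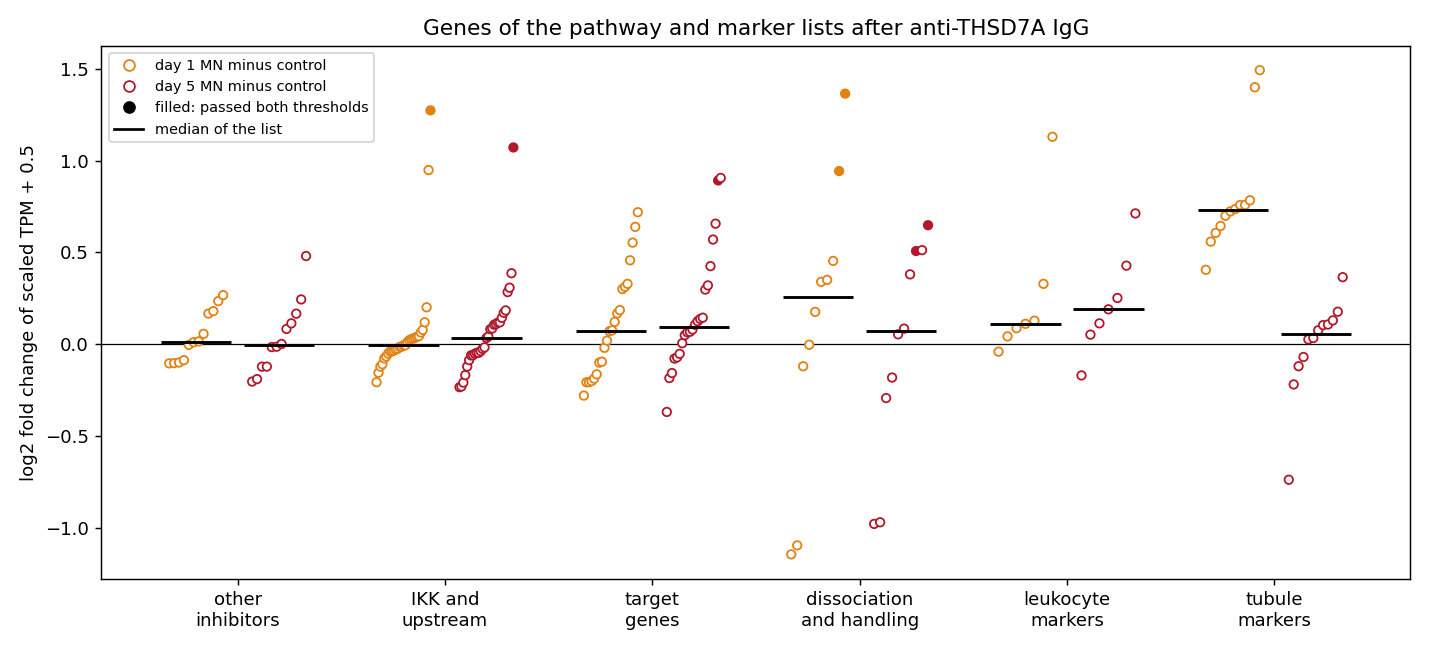
Log2 fold change against control of each tested gene of the 3 pathway lists, the handling genes and the leukocyte and tubule markers, 1 point per gene, at day 1 and at day 5, with bars for list medians and filled points for calls. The 3 pathway lists center near 0, with medians from -0.01 to 0.09, and the tubule markers lie above 0 at day 1 with a median of 0.73.

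Markers of other cells differed between the groups. All 12 tubule markers had a positive log2 fold change at day 1, none of them called by limma (8 with an unadjusted p under 0.05), with a median of 0.73 that was 0.06 at day 5. Their summed TPM was 556 to 1586 in control, 1100 to 1846 at day 1 and 815 to 1003 at day 5. Between day 5 and day 1, all 12 had a negative log2 difference, with a median of -0.69. Of them, 2 were called, *Calb1* (limma, adjusted p = 0.0313) and *Aqp2* (limma, adjusted p = 0.0286), against 1.81% of all genes. In 8 of the 12, every day 5 library lay below every day 1 library, against 11% of all genes without overlap in either direction. With a tubule marker score as a covariate, *Tnfaip3* was at 0.94 (limma, adjusted p = 0.199) at day 1 and 0.81 (limma, adjusted p = 0.00915) at day 5, and *Nfkb2* at day 5 was at 0.34 (limma, adjusted p = 0.031). *Tnfrsf12a* at day 1 was at 1.02 with that score (limma, adjusted p = 0.284). Of the 10 leukocyte markers 7 were tested and 0 were called by limma at either day (1 with an unadjusted p under 0.05 at each). These were *S100a9* at day 1 (1.13, limma adjusted p = 0.324) and *Ptprc* at day 5 (0.71, limma adjusted p = 0.131). At each day 6 of the 7 were positive, with medians of 0.11 and 0.19. The 10 leukocyte markers summed to 33.0 to 65.8 TPM in control, 49.7 to 79.2 at day 1 and 31.0 to 72.8 at day 5. The part of leukocytes in the *Tnfaip3* values was not tested. The 7 podocyte, 6 endothelial and 5 mesangial markers had 0 calls at either day (limma, with 2, 1 and 0 unadjusted p under 0.05 at day 1 and 2, 3 and 0 at day 5). At day 5, all 6 endothelial markers had a positive log2 fold change, with a median of 0.21. Of the markers, 2 passed on the day 5 adjusted p and not on size, and are named after their values were seen. *Emcn*, an endothelial sialomucin, was at 1151 to 1419 TPM in control and 1510 to 1604 TPM at day 5 (0.29, limma adjusted p = 0.0127, and 0.0126 to 0.0523 with 1 library left out). With quantile normalization *Emcn* was at 0.20 (limma, adjusted p = 0.1). *Synpo*, which encodes the podocyte actin-binding protein synaptopodin, was at 1350 to 1552 TPM in control and 915 to 1159 TPM at day 5 (-0.46, limma adjusted p = 0.00197, and 0.00163 to 0.00982 with 1 library left out). *Synpo* was called in 1 of 10 other settings, quantile normalization (-0.5001, limma adjusted p = 0.00413). The part of these differences in the day 5 *Tnfaip3* value was not tested.

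Genes known to respond to tissue dissociation and handling were also measured. Of 10 such genes, *Fosb* (1.37, limma adjusted p = 0.0395) and *Egr1* (0.94, limma adjusted p = 0.0271) were called at day 1, and *Egr1* (0.65, limma adjusted p = 0.0162) and *Junb* (0.51, limma adjusted p = 0.0175) at day 5. Of all genes, 0.0908% were called at day 1 and 3.21% at day 5. With 1 library left out, the calls of *Fosb* and *Egr1* held in 2 and 8 of 13 fits at day 1, and those of *Egr1* and *Junb* in 11 and 8 of 13 fits at day 5. Among the other settings, *Fosb* was called in 6 of 9 and *Egr1* in 6 of 10 at day 1, and *Egr1* in 9 of 10 and *Junb* in 8 of 10 at day 5. Both day 1 calls were lost with no filter on low TPM (limma, adjusted p = 0.0505 for *Fosb* and 0.0592 for *Egr1*), with a fit of the compared groups alone (0.121 and 0.1) and with the tubule score (0.193 and 0.16), and that of *Egr1* also without the trend (0.055). At day 5 *Junb* was under the threshold of size with no scaling (0.47). *Ier2*, named after its value was seen, passed on the day 5 adjusted p and not on size (0.38, limma adjusted p = 0.02). Every MN library lay above every control for 3 of the 10 genes at each day, against 0.908% and 5.07% of all genes. The medians of the list were 0.26 and 0.07, and its summed TPM was 474 to 686 in control, 493 to 783 at day 1 and 486 to 549 at day 5. Of this list, the study places *Egr1* and *Fosb* among the genes altered at both days, and describes them as implicated earlier in cellular stress and injury. The part of handling in the *Tnfaip3* difference was not tested.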

How the data were processed

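Bulk RNA-Seq of isolated glomeruli was taken from 13 mice, 1 library each. Per the study's methods, RNA was sequenced in pairs on a NovaSeq instrument, trimmed with Trimmomatic 0.39 after FastQC 0.11.9, and quantified with Kallisto 0.46.2 against GRCm39. The authors deposited TPM, with 1 value per gene symbol and library. TPM are rescaled within each library only. The listed values summed to 989774 to 996064 per library, and 46.5% to 49.5% of symbols were at 0. Read counts were not used here, so depth is unknown and no counting interval is given. The authors tested counts with DESeq2. How transcripts were summed to symbols was not given in the sources used here.

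Groups were taken from the sample labels. Libraries were brought to a common scale with median-of-ratios factors (0.955 to 1.04, from 15772 genes), and values were transformed as log2(scaled TPM + 0.5). The 14322 of 35967 genes that reached 1 TPM in 4 or more libraries entered a limma fit (version 3.58.1, R 4.3.3), with a mean-variance trend, all 3 groups in 1 fit and Benjamini-Hochberg adjustment within each comparison. The 10 genes and the pathway and marker lists were chosen with earlier results of these data known, so no test over a list was made. Of each pathway list, the genes called in any comparison and those with the highest and lowest day 5 value were named. For a called gene, the 3 tested genes with the smallest root mean square difference in standardised profile were named too. Gene positions come from GENCODE on GRCm39 and promoters from RefSeq on GRCm38.p6, and coordinates of the builds were not mixed. Alternatives were pseudocounts of 0.1 and 1, no scaling, quantile normalization, no filter, 1 TPM reached in all libraries, no trend, only the compared groups, a replicate block, a tubule marker score as covariate, the adjusted p alone, and each library left out. The code was tested on simulated data. Python 3.11.15 and matplotlib 3.10.9 were used for plots.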

Additional observations from a re-analysis of the deposited data

How the results depend on the processing

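*Tnfaip3* at day 5 passed both thresholds in all 13 fits that left out 1 library (log2 fold change 0.71 to 0.89) and in all 10 other settings that kept both thresholds (0.71 to 0.85). At day 1 it stayed positive in the same settings (0.65 to 0.94) and was called in 1, without control replicate 5. The number of the 10 genes called at day 1 was thus 0 to 1 when 1 library was left out. With the adjusted p alone, 2 were called at day 5 (*Tnfaip3* and *Nfkb2*). Replicate numbers did not pair the samples: of 12 same-numbered pairs, 0 had a correlation of deviations over 0.1 (-0.0563 to 0.0913). With the replicate number as a block, *Tnfaip3* was at 0.70 (limma, adjusted p = 0.0557) at day 1 and 0.71 (limma, adjusted p = 0.0274) at day 5, and *Nfkb2* at 0.31 (limma, adjusted p = 0.0647) at day 5. *Egr1* (0.61, limma adjusted p = 0.0707) and *Junb* (0.48, limma adjusted p = 0.0524) were not called at day 5 with the block. The depth is unknown, so how far counting error limits low genes such as *Rel* could not be given.

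Counts over all genes moved more than those of the 10 genes. The 13 genes called at day 1 became 6 with no filter, 7 without the trend, 2 with only the compared groups, 149 with the replicate block and 0 with the tubule score as a covariate (limma, where 1224 had an unadjusted p under 0.05, against 1799 without it). They ranged from 3, without day 1 replicate 1, to 218, without control replicate 5. The 460 genes called at day 5 became 876 with the adjusted p alone. The 259 genes called between day 5 and day 1 became 153 where 1 TPM had to be reached in all libraries, 414 with only the compared groups and 123 with the tubule score, and ranged from 150 without day 5 replicate 2 to 437 without control replicate 5. The cause of these shifts was not tested.

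Of the fold changes given for the 10 genes, signs turned only where the difference was not called. At day 1, *Rel* was at -0.0098 with no scaling, -0.0080 with quantile normalization and -0.019 with the tubule score. *Nfkbia* at day 1 was at -0.045 with no scaling, -0.016 with quantile normalization and -0.020 with the block, and *Nfkb1* at 0.0022 with quantile normalization and 0.072 with the tubule score. At day 5, *Nfkbia* was at -0.027 with no scaling, -0.041 with quantile normalization and -0.013 with the block. Between day 5 and day 1, the tubule score gave -0.021 for *Relb* and -0.13 for *Tnfaip3*. Leaving out 1 library gave day 1 ranges of -0.026 to 0.073 for *Rel*, -0.043 to 0.019 for *Nfkb1* and -0.11 to 0.10 for *Nfkbia*. The day 5 ranges were -0.099 to 0.064 for *Rel*, -0.037 to 0.026 for *Nfkb1* and -0.076 to 0.060 for *Nfkbia*, and the range of *Tnfaip3* between the days was -0.075 to 0.16.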

Other observations

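The genes whose profile over the 13 libraries was closest to that of *Tnfaip3* were *Palmd*, *Bcl7c* and *Hlx*, with root mean square differences of 0.398, 0.441 and 0.461 between standardised log2 values. *Palmd* was at 64.0 to 84.0 TPM in control, 86.4 to 102 TPM at day 1 and 103.9 to 113.8 TPM at day 5. *Bcl7c* covered 41.9 to 51.4, 49.4 to 58.8 and 48.4 to 59.5 TPM in the same groups, and *Hlx*, a homeobox transcription factor, 35.5 to 58.3, 48.2 to 73.2 and 52.3 to 61.2 TPM. The 3 genes were picked for this likeness, so it is a description over libraries and no test.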
